A study of Mus musculus with 6 samples.

Results

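Adipoq, Retn, Lep, Cfd, Fabp4, Plin1, Plin4, Cidec, Cidea and Pnpla2 are 10 genes known from fat cells, and their RNA was followed here in the testes of mice with and without Prss54. They were chosen by gene name among the gene probes of the arrays and have 14 probes, of 41174 probes and 27376 gene names in all. All 14 probes were read on each of the 6 arrays, and the rule that chose them uses no measured value. Whole testes of 3 Prss54KO mice and 3 WT mice were compared, to find transcripts that differ when Prss54, a gene of the serine protease family, is lacking. All 6 were males aged 6 to 8 weeks on a mixed 129Sv/C57BL/6 background, with 1 array per mouse. The sources used here give neither the deleted part of Prss54 nor the litters. The p-values weigh a difference between genotypes only against the spread between these mice within a genotype, and litters could not be accounted for. In whole tissue, fewer cells of a type and less RNA per cell cannot be told apart.

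Fat cells store triglyceride in a lipid droplet whose surface is coated with perilipins and CIDE proteins, and lipases at that surface release fatty acids when energy is needed. The same cells secrete hormones, the adipokines, which carry information on fat stores to other organs. The epididymis lies along the testis and carries a fat pad, and cells of the testis also hold lipid droplets of their own.

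Probe sequences are shown first for Retn, Fabp4 and Adipoq, because their values are read from separate or overlapping stretches of 1 RNA, or from a single stretch. They are 5′ to 3′ as the array's files give them, with positions in the mm9 build. The Retn probes at chr8:3656107-3656928 and chr8:3656145-3656966 (plus strand) each spread their 60 bases over 822 bases of the genome. They share 22 bases, in capitals, so they are not independent readings.
Retn A_52_P55972: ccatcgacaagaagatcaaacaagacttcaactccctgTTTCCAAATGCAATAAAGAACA
Retn A_51_P233597: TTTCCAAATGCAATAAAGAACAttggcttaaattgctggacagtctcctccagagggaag
The 3 Fabp4 probes share runs of at most 7 bases and start at bases 75, 391 and 472 of the transcript. The first lies at chr3:10208442-10208501 and the second is spread over 730 bases at chr3:10204533-10205262 (both minus strand). The third lies at chr3:10204452-10204511.
Fabp4 A_52_P564544: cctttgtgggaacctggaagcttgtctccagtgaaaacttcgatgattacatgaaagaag
Fabp4 A_51_P336830: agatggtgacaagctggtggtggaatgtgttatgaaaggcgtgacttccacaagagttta
Adipoq has a single probe, at chr16:23157576-23157635 (plus strand), starting at base 766 of its transcript.
Adipoq A_51_P458451: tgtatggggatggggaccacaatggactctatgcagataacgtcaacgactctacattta

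The arrays were close to each other as a whole. The median processed signal, a spot's brightness once the scanner software has treated its background, was 203.1 to 219.7 intensity units, and 66.2% to 74.8% of gene spots on an array were well above background. All 10 germ cell markers and 7 of 7 Leydig cell markers on the array were well above background on all 6 arrays, as were 7 of 8 Sertoli cell markers. Levels over all kept probes correlated between arrays at r of 0.994 to 0.996. A level here is the log2 of that signal with the array's own 75th percentile subtracted. Prss54 itself had a processed signal of 8421 ± 1042 in Prss54KO testes and 24316 ± 1727 in WT testes (SD, n = 3 each), a log2 difference of -1.56 (SE 0.10), with an adjusted p of 0.116 in limma's test across all probes. Whether its probe lies in the deleted part is not known, so this is a partial check of the genotypes. Of 28912 probes well above background on at least 3 arrays, 0% had an adjusted p under 0.05, and 929 probes (3.21%) had an unadjusted p under 0.05. The arrays lay on 3 slides. Prss54KO replicates 1 and 2 shared slide 2 with WT replicate 3, while Prss54KO replicate 3 was on slide 1 and WT replicates 1 and 2 were on slide 3.

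None of the 10 genes differed between the genotypes past the test, and the pattern that stood out lay in 1 mouse. WT replicate 3 had the highest level on 9 of the 14 member probes, among them those of Cfd, Fabp4 and Cidec. It had the lowest for Adipoq, by 0.55, for Lep, by 0.051, and for Pnpla2 A_52_P681771, by 0.0039 (log2). Lep was well above background on no array. The 9 include every Fabp4 probe and both overlapping Retn probes, so they are not separate readings. On Retn A_51_P233597 and Pnpla2 A_51_P197213 its lead was only 0.023 and 0.035 on the log2 scale. The share of all probes that were highest in WT replicate 3 was not counted. Each difference of the 10 genes is therefore given with and without that mouse. Of the 14 probes, 11 entered the test, and they belong to 8 genes, because Cfd and Lep had no probe that passed the filter on dim signals. In Prss54KO, 8 of the 11 were lower and 3 higher, 0 passed an adjusted p of 0.05 and 0 reached an unadjusted p of 0.05, a level that 1.46% of all tested probes reached with Prss54KO lower and 1.76% with Prss54KO higher. Over all tested probes, 46.6% were lower and the median difference was 0.0071 on the log2 scale. The 8 lower member probes include both Retn probes and both tested Fabp4 probes, so they too are not separate readings. Without WT replicate 3, 7 of the 11 were lower. Without the filter, the median over all 14 probes was -0.15, against 0.025 over all 41174 probes, with 10 of 14 lower in Prss54KO against 41% of all. The adjusted p was 0.9998 in limma's test for each of the 11 probes.

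**Figure D1:**
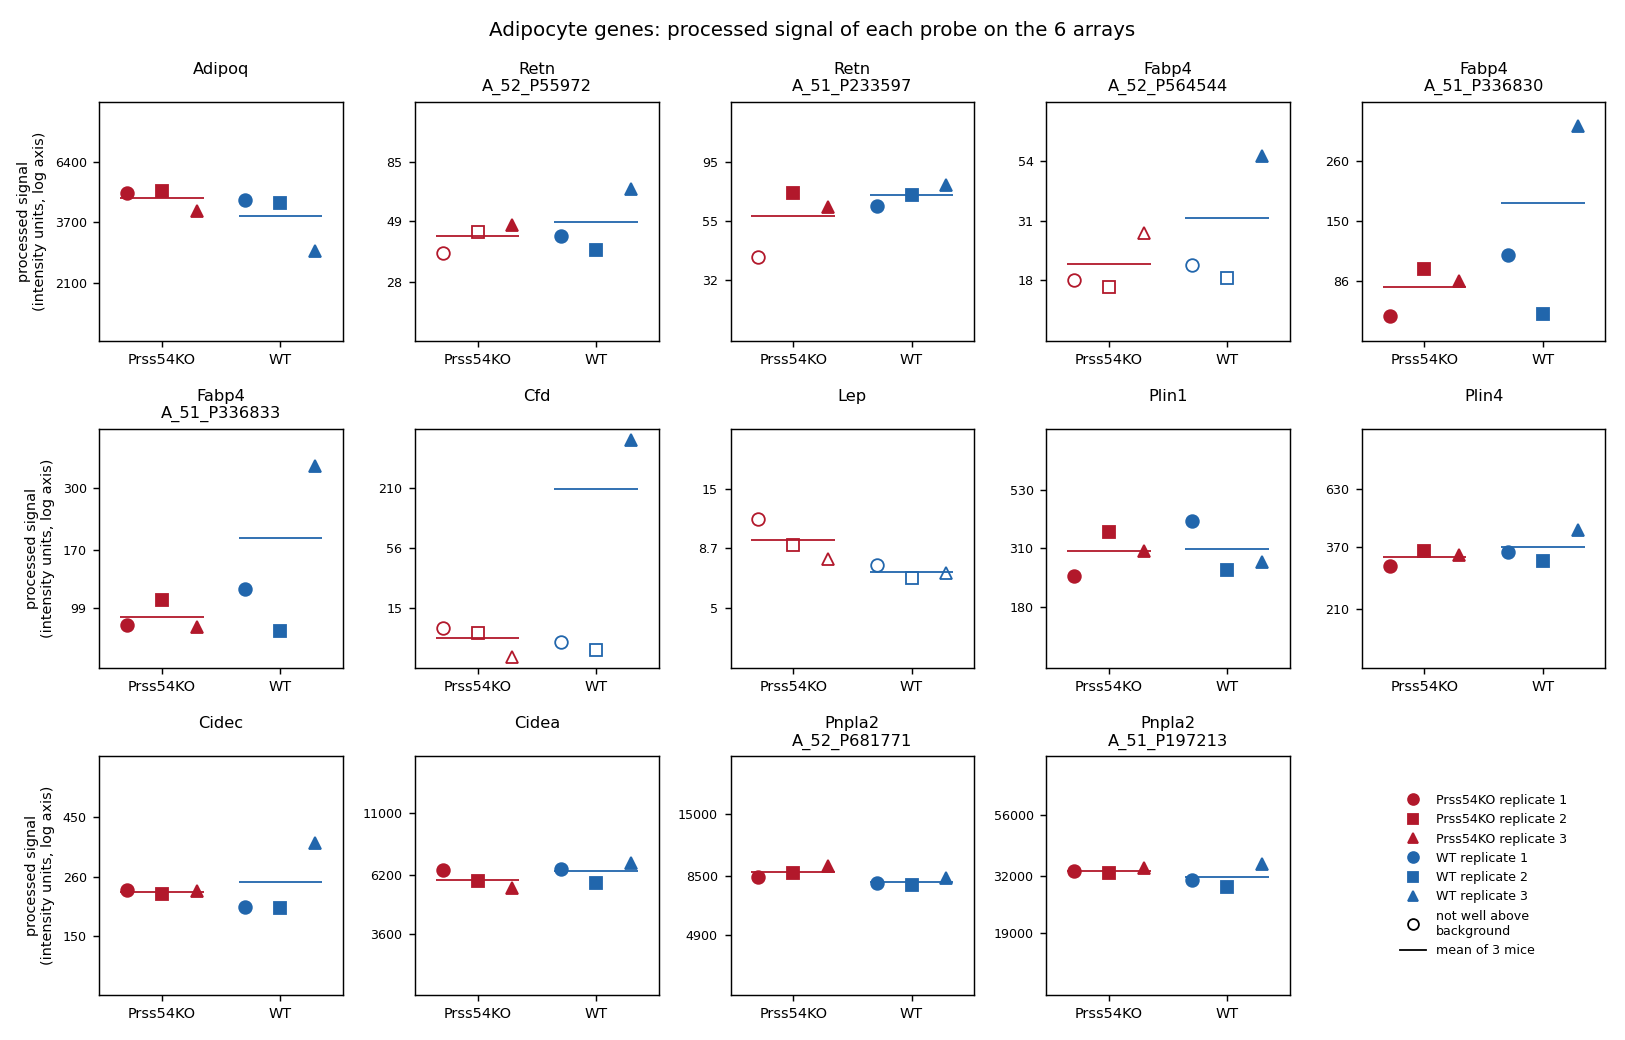
Processed signal (intensity units, log axis with its own range in each panel) of the 14 probes in 3 Prss54KO mice (red, left) and 3 WT mice (blue, right); lines are group means and open symbols are arrays where the probe was not well above background. The signal of Cfd was 609.0 in WT replicate 3 and between 5.13 and 9.64 on the other 5 arrays, while that of Adipoq was 2820 in WT replicate 3 and at least 4071 on the others.

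Adipoq encodes adiponectin, a circulating hormone of fat cells that raises insulin sensitivity. Its processed signals were 4809, 4885 and 4071 in Prss54KO replicates 1, 2 and 3, against 4496, 4398 and 2820 in WT replicates 1, 2 and 3. The 3 Prss54KO mice and WT replicates 1 and 2 lay together, and WT replicate 3 lay below all of them, with the next lowest signal 1.44 times as high. The groups overlapped. The mean level was 1.45 ± 0.16 in Prss54KO and 1.22 ± 0.43 in WT (log2, SD, n = 3 each), a difference of 0.23 (SE 0.22) with a 95% interval of -0.30 to 0.76. Without WT replicate 3 the difference was -0.020. Its gap of 0.55 below the next array ranked 246 among 27548 probes well above background on at least 5 arrays. The probe was well above background on all 6 arrays.

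Retn encodes resistin, which in mice is made by fat cells and opposes insulin action. Probe A_52_P55972 gave 36.6, 44.4 and 47.4 intensity units in Prss54KO, against 43.0, 37.6 and 65.9 in WT. Probe A_51_P233597 gave 39.4, 71.2 and 62.4 in Prss54KO, against 63.5, 70.3 and 76.8 in WT. These signals sit at the edge of the mark for well above background: the first cleared it on 1 of 3 Prss54KO arrays and 3 of 3 WT arrays, and the second on 2 of 3 Prss54KO arrays and 3 of 3 WT arrays. Prss54KO replicate 1 was the lowest and WT replicate 3 the highest on both probes, and the groups overlapped on both. The log2 differences were -0.18 (SE 0.20, 95% interval -0.67 to 0.30) and -0.35 (SE 0.22, 95% interval -0.89 to 0.19). Without WT replicate 3 they were 0.023 and -0.32, so the 2 overlapping probes then differed in sign, and without Prss54KO replicate 1 the second was -0.098.

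Lep encodes leptin, the hormone through which fat stores restrain appetite and permit fertility. Its probe (chr6:29023234-29023293) is printed 10 times on each array, more often than that of any other of the 10 genes. The mean signals over its spots were 11.4, 8.94 and 7.92 in Prss54KO, against 7.48, 6.65 and 6.91 in WT. No array counted the probe as well above background, and 1 of the 10 spots did so on WT replicate 1 alone. Lep RNA was thus not detectable at this signal in any of the 6 testes, and no fold is given.

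Cfd encodes complement factor D, also called adipsin, a serine protease of the alternative complement pathway that fat cells secrete in quantity. The signals were 9.64, 8.68 and 5.13 in Prss54KO, against 7.18, 6.02 and 609.0 in WT. On 5 arrays the probe was not well above background, and in WT replicate 3 it was. For the other arrays a bound was used, the lowest level of any spot marked well above background on that array. The level in WT replicate 3 was 13.0-fold above the highest of these bounds. An unmarked spot can lie above its array's bound, so this is not a strict lower limit. Other probes showed a single bright array too, on measured levels: 56 of 31780 probes lay more than 1 log2 unit above all other arrays in WT replicate 3, and 114 to 181 did so in each of the other 5 mice. On the same levels the Cfd gap of 5.95 ranked 1 among 31371 probes whose highest array was well above background. The probe is printed once per array, at chr10:79355302-79355361, so the value rests on 1 spot. In the authors' deposited table, which is quantile normalized between arrays, Cfd had log2 values of 2.77, 2.81 and 2.79 in Prss54KO, against 2.77, 2.74 and 9.20 in WT. No fold between the genotypes is given, since the group mean of WT did not pass the bound set for Prss54KO.

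Fabp4, the fatty acid carrier of fat cells, is also made by macrophages and by the endothelium of small vessels. Probe A_51_P336830 gave 62.4, 96.1 and 86.2 in Prss54KO, against 109.9, 63.6 and 358.9 in WT. Probe A_51_P336833 gave 84.6, 106.9 and 83.1 in Prss54KO, against 117.6, 80.2 and 368.0 in WT. Probe A_52_P564544, nearest the start of the transcript, gave 18.1, 17.0 and 27.8 in Prss54KO, against 20.6, 18.4 and 56.6 in WT. It was well above background in WT replicate 3 alone and was not tested. On all 3 probes, which have no long run of bases in common, WT replicate 3 was the highest of the 6 mice, and the other 5 overlapped between genotypes. The signal in that mouse was 3.26 and 3.13 times that of the next mouse on A_51_P336830 and A_51_P336833. On A_52_P564544 the same bound was used for the other arrays, and the level in WT replicate 3 was 1.21-fold above the highest of them.

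The log2 differences of the tested Fabp4 probes were -0.79 (SE 0.59) and -0.77 (SE 0.52). Their 95% intervals ran from -2.22 to 0.65 and from -2.03 to 0.49. Without WT replicate 3 the differences were -0.12 and -0.16. The SD of the level over mice was 0.33 and 0.21 in Prss54KO, against 1.22 and 1.09 in WT. Only 0.54% and 0.733% of all tested probes had a larger SD within genotypes, and Fabp4 was the only one of the tested members beyond the 95th percentile of that spread.

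**Figure D2:**
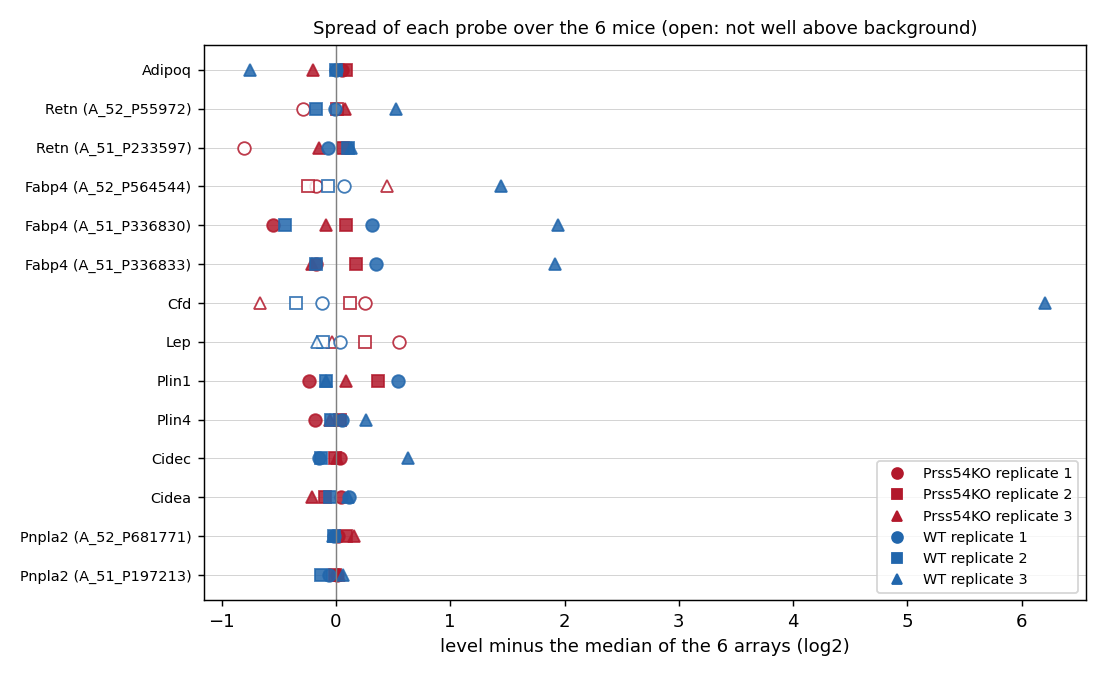
Level of each probe minus its median over the 6 arrays (log2), with Prss54KO in red, WT in blue, symbols for the replicate and open symbols where the probe was not well above background. WT replicate 3 stands to the right for Cfd, the 3 Fabp4 probes and Cidec and to the left for Adipoq, at 0.55 below the next array.

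Plin1 and Plin4 encode perilipins, coat proteins of the droplet. Plin1 keeps lipases off the stored fat until hormones call for it. Its signals (probe at chr7:86866112-86866171) were 239.8, 360.2 and 302.1 in Prss54KO, against 397.6, 252.5 and 271.5 in WT. WT replicate 1 was the highest and Prss54KO replicate 1 the lowest, WT replicate 3 lay among the others, and the groups overlapped. The difference was -0.050 (SE 0.22, 95% interval -0.60 to 0.49), and -0.16 without WT replicate 3. Plin4 (chr17:56240055-56240114) gave 310.1, 359.0 and 343.7 in Prss54KO, against 354.1, 326.1 and 432.5 in WT. Here WT replicate 3 was again the highest, by less than for Fabp4. The difference was -0.16 (SE 0.10, 95% interval -0.40 to 0.087), and -0.072 without that mouse.

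Cidec and Cidea belong to the CIDE family, which joins small droplets into larger ones. Cidec, of white fat, gave 229.3, 221.0 and 227.0 in Prss54KO, against 196.2, 194.6 and 353.9 in WT (probe at chr6:113374693-113374752). The 3 Prss54KO mice lay close together, WT replicates 1 and 2 lay just below them and WT replicate 3 lay far above. The SD of the level was 0.020 in Prss54KO and 0.44 in WT (log2, n = 3 each). The difference was -0.11 (SE 0.21, 95% interval -0.62 to 0.41). Without WT replicate 3 it was 0.15 (SE 0.057, limma adjusted p = 0.797). Cidea, known from brown fat and its droplets, gave 6518, 5853 and 5503 in Prss54KO, against 6592, 5794 and 6947 in WT. The groups overlapped and no mouse stood apart. The difference was -0.14 (SE 0.086, 95% interval -0.35 to 0.068), and -0.12 without WT replicate 3.

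Pnpla2 encodes adipose triglyceride lipase, which takes the first fatty acid off stored triglyceride in fat and in many other tissues. Probe A_52_P681771 (chr7:148645100-148645159) gave 8377, 8723 and 9312 in Prss54KO, against 7933, 7772 and 8337 in WT. On the level scale all 3 Prss54KO mice lay above all 3 WT mice, as on 1 of the 11 tested member probes. Groups failed to overlap on 7.89% of all tested probes, 4.32% with Prss54KO higher and 3.56% with it lower, so a single probe is near that background. The difference was 0.11 (SE 0.057, 95% interval -0.033 to 0.24), and the exact two-sided permutation test gave 0.1, its minimum for 3 against 3 mice. Probe A_51_P197213 (chr7:148645930-148645989) gave 33725, 32844 and 34412 in Prss54KO, against 30966, 29030 and 35773 in WT. There WT replicate 3 was the highest of all and the groups overlapped. Its difference was 0.052 (SE 0.066, 95% interval -0.11 to 0.21). Without WT replicate 3 the differences of the pair were 0.10 and 0.11.

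**Figure D3:**
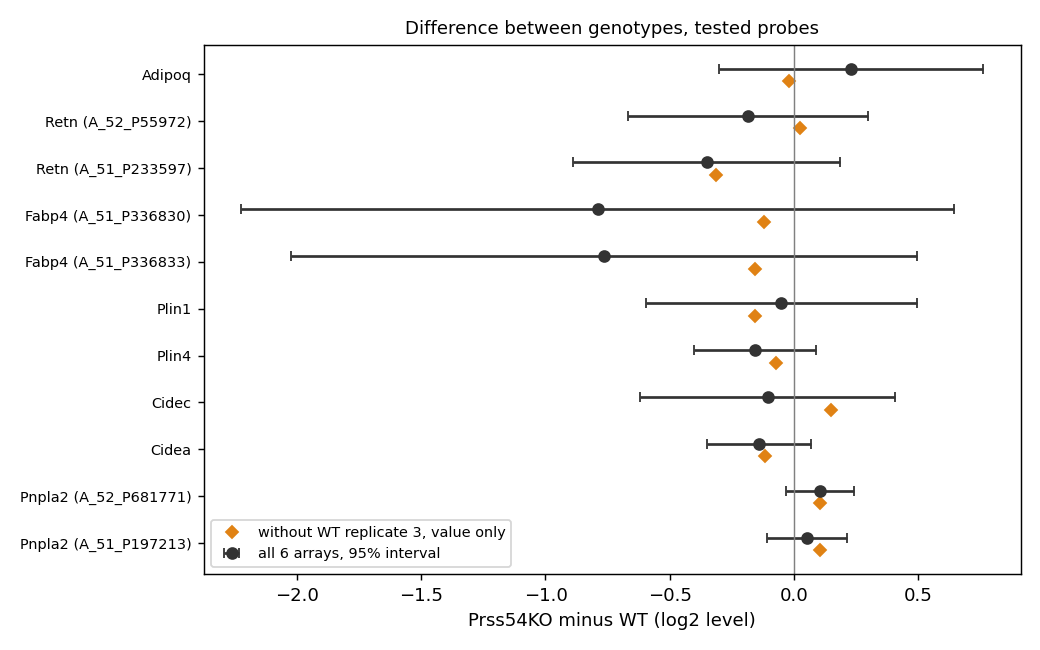
Difference in level, Prss54KO minus WT (log2), of the 11 tested member probes with limma's 95% interval from all 6 arrays (black), and the difference without WT replicate 3 (orange). Every interval spans 0, and the Fabp4 differences of -0.79 and -0.77 become -0.12 and -0.16 without that mouse.

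Slide 2 holds both genotypes, and WT replicate 3 is the only WT mouse on it. On that slide alone, and equally with slide as a fixed block, the difference was 0.82 for Adipoq, -2.17 and -1.91 for Fabp4, -0.61 for Cidec and -0.67 for Retn A_52_P55972. The lowest adjusted p in limma's test was 0.745 on slide 2, shared by Adipoq and Fabp4 A_51_P336833, and 0.295 with the block, for Adipoq. These values set the single array of WT replicate 3 against Prss54KO replicates 1 and 2, whose spread it is assumed to share on slide 2 alone, so genotype and this mouse cannot be told apart there.

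The description of the 10 genes as fat carried along at dissection was set against other markers of fat cells. Of 17 further adipocyte markers, 16 were on the array, 10 of them well above background on all 6 arrays, while Adig, Adrb3 and Sncg were well above background on none. Lep RNA was not detectable in any mouse. The summed level of the markers, in units of each array's 75th percentile, was 46.5, 42.9 and 34.4 in Prss54KO, against 40.8, 40.0 and 42.1 in WT. Aqp7, a glycerol channel, made up 76.2% to 79.6% of this sum, so it says little of the other markers. Of the 13 markers whose brightest probe was well above background on at least 1 array, 3 were highest in WT replicate 3. The set is named here as genes known from fat cells. The part of fat on the organ's surface in these values was not tested.

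Markers of endothelial cells and macrophages, which also make Fabp4, were read beside it, as were markers of fibroblasts and matrix. The summed level of 10 endothelial markers was 4.78 to 5.31 in Prss54KO and 5.03 to 5.14 in WT, with 5.14 in WT replicate 3. Vwf made up 51.1% to 55.9% of that sum, and 2 of the 10 markers were highest in WT replicate 3. That of 11 macrophage markers was 9.53 to 14.1 in Prss54KO and 10.3 to 13.2 in WT, with 13.0 in WT replicate 3. Lyz2 made up 60.7% to 67.7% of it, and of the 10 macrophage markers well above background on at least 1 array, 2 were highest in WT replicate 3. Among these macrophage markers Itgam alone was well above background on no array. Fibroblast and matrix markers (10 genes) summed to 21.2 to 30.3 in Prss54KO and 29.3 to 37.5 in WT, and here WT replicate 3 was the highest of the 6, on the sum and for 6 of the 10 genes. Dcn made up 42.4% to 53.0% of that sum and Col1a2 30.1% to 35.1%. All 9 tested fibroblast markers were lower in Prss54KO, against 46.6% of all tested probes. Of these 9, 2 had an unadjusted limma p under 0.05, against 1.46% of all tested probes in that direction, and 0 passed the adjusted test. The part of these cell types in the Fabp4 and Cfd values was not tested.

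Beyond the 10 genes, the wider pathways of fat storage gave 0 calls at an adjusted p of 0.05, as over all 19389 genes, whose median difference was 0.0066. Of 20 listed genes of lipid droplets and lipolysis 16 were tested, 8 higher and 8 lower in Prss54KO, with a median of -0.0032. Fitm1, which helps to form droplets, differed by 0.16 (SE 0.080), and G0s2, an inhibitor of the Pnpla2 lipase, by 0.17 (SE 0.11). Of 23 adipogenic regulators and fat synthesis genes 22 were tested, 10 higher and 12 lower, with a median of -0.025. The 2 with the smallest p were Cebpa at -0.42 (SE 0.13) and Cebpb at -0.63 (SE 0.24), both C/EBP factors that drive fat cell differentiation. These 2 were the members of that list with an unadjusted p under 0.05, and neither passed the adjusted test. They are 2 of 22, both lower, against the 1.46% of all tested probes that were lower at that level.

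Of 23 adipokine receptors, relatives and complement partners 19 were tested, 9 higher and 10 lower, with a median of -0.016. Apln, which encodes the peptide apelin, differed by -0.51 (SE 0.13) and Rarres2, which encodes chemerin, by -0.34 (SE 0.14), neither past the adjusted test. Apln was the 1 of 19 with an unadjusted p under 0.05, also lower. The leptin receptor gene Lepr was well above background on no array. Of 12 brown fat genes 9 were tested, 1 higher and 8 lower, with a median of -0.11. Besides Cidea, Dio2, the enzyme that activates thyroid hormone, had the smallest p, at -0.13 (SE 0.086). Ucp1, the uncoupling protein that makes heat in brown fat, was well above background on no array, whereas Cidea was on all 6.

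The genes whose pattern was most like that of Adipoq were sought among 1516 probes with an SD of at least 0.3 over the 6 arrays. They were Olfr569, Sept8, Zbtb7c, Hcrt and Zfp423, with Pearson r over the 6 arrays of 0.9995, 0.9985, 0.9983, 0.9903 and 0.9836. These r values describe 6 points from arrays that share their scaling. WT replicate 3 was the lowest array for all 5 genes as for Adipoq, which largely follows from choosing them by r. Olfr569, an olfactory receptor gene, had levels of -1.02, -0.89 and -1.78 in Prss54KO, against -1.17, -1.24 and -3.35 in WT. Prss54KO replicate 3 was the second lowest array on it, again as for Adipoq and for the same reason. The longest run of bases shared with the Adipoq probe was 8 for Sept8 and Zbtb7c, a length that 6.49% of all 41173 other probes reach, and 6 for the other 3, which 66.0% reach.

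The promoters of Cfd and Adipoq are shown because Cfd was at its highest and Adipoq at its lowest in the same mouse. They are the 250 bases before each gene's start, from RefSeq on GRCm38.p6, plus strand, at chr10:79890603-79890852 for Cfd and chr16:23146286-23146535 for Adipoq, with motif matches in capitals.
Cfd promoter: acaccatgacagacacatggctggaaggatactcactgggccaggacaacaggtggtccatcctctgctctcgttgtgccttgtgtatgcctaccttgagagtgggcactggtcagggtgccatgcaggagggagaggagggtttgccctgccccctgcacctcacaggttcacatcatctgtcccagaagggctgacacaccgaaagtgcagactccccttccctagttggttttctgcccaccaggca
Adipoq promoter: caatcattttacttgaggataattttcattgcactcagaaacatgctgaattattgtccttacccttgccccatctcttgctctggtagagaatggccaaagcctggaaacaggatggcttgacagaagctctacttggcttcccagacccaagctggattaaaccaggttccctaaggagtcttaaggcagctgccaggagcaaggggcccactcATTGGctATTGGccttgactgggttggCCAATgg
The search covered 9 such windows for 8 of the 10 genes. No window of Fabp4 or Cidea was searched, which says nothing of whether RefSeq holds one. Each of the 9 was searched on both strands for AGGTCA (a nuclear receptor half-site), TTGCNNAA (C/EBP-like), TATAAA and CCAAT. The Adipoq window holds CCAAT or its complement at -34, -27 and -7, and the Plin4 window holds it at -18, while 33.8% of all 32851 windows hold it. TTGCNNAA occurs at -55 for Lep, at -187 and -58 for Plin1 and at -198 in 1 of the 2 Cidec windows, against 9.56% of all windows. AGGTCA and TATAAA, held by 14.0% and 12.4% of all windows, occur in none of the 9. These are matches of letters, and binding was not measured.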

How the data were processed

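Testis RNA of 3 Prss54KO and 3 WT mice was read on 1-colour Agilent mouse arrays, 1 per mouse. The authors' scanner files give each spot's intensity, not log transformed, written by Agilent Feature Extraction 10.7.3.1 per the file headers (10.7 per the submitters' processing notes), with marks for spots well above background or outliers and mm9 probe positions. The authors' deposited table holds log2 values with identical quantiles on all arrays (median 7.72, range 2.71 to 18.95) and served as an alternative input. The software behind it is not named in the labels.

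Of 43379 gene spots per array, 86 to 142 marked as outliers were dropped. The level was the log2 processed signal scaled to the 75th percentile of its array, averaged over a probe's spots. The 28912 probes that cleared background on 3 or more arrays were compared with limma 3.58.1 in R 4.3.3 (lmFit, eBayes, two-sided, Benjamini-Hochberg over all of them, threshold 0.05). Differences are Prss54KO minus WT, and SE is limma's. Gene lists use the brightest probe per gene. The script was tested on simulated data. The number of arrays limits the precision, and 0 spots were saturated.

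The genes and lists were chosen with earlier results of these data known. Named are all 10 genes, Prss54, from each pathway list those past the threshold (failing that, the 2 of smallest p), and the 5 genes most like Adipoq and Pnpla2. The 10 genes all matched RefSeq by symbol and accession. Alternatives were other scalings, normexp background correction, filters, the brightest probe per gene, the authors' table, slide and replicate blocks, array weights, another variance model, outlier spots kept and each mouse left out.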

Additional observations from a re-analysis of the deposited data

How the results depend on the processing

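Over 20 alternatives, 206 of 215 values of the 11 tested probes kept their direction and none passed an adjusted p of 0.05 in limma's test (lowest 0.295). Plin1 was 0.15 with slide as a fixed block or on slide 2 alone, 0.10 without Prss54KO replicate 1 and 0.16 without WT replicate 1. Pnpla2 A_51_P197213 was -0.066 with the slide block or on slide 2. Without WT replicate 3, Adipoq was -0.020, Retn A_52_P55972 0.023 and Cidec 0.15. With 1 mouse left out, Adipoq ran from -0.020 to 0.36, Retn A_52_P55972 from -0.33 to 0.023, Plin1 from -0.20 to 0.16, Cidec from -0.24 to 0.15, and the 2 Fabp4 probes from -1.32 to -0.12 and from -1.20 to -0.16. Probes called over the whole array numbered 0 in the reported fit, 1 with normexp, 1 with slide as a fixed block and 2 with a trend and robust variance, none of them from the 10 genes. The cause was not tested. Those with an unadjusted p under 0.05 numbered 929, against 1796 without WT replicate 3 and 579 without WT replicate 1. With a replicate block 0 probes were called and 1134 had such a p. The deviations of same-numbered mice correlated at -0.044, 0.020 and -0.15, so little was shared by number. These few values cannot tell whether the numbers pair the mice. Dim signals limit Retn, Cfd, Lep and the first Fabp4 probe. The filter on all 6 arrays leaves no value for either Retn probe, and the brightest probe per gene leaves none for Retn A_52_P55972, Fabp4 A_51_P336830 and Pnpla2 A_52_P681771.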

Other observations

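Pnpla2, read through probe A_51_P197213, also had genes of like pattern among 1517 probes with an SD of at least 0.3: Crygf, Tfec, Slc17a2, Gja5 and Olfr1358, with Pearson r of 0.9833, 0.9728, 0.9707, 0.9630 and 0.9566 over the 6 arrays. The Pnpla2 probe itself was nearly flat, with a range of 0.20 (log2), and 70.3% of tested probes had a larger SD within genotypes. Its like genes were dim, with levels from -5.67 to -3.71. On the other Pnpla2 probe the WT arrays were nearly tied, with WT replicate 3 the lowest by 0.0039 (log2), and all Prss54KO arrays lay above them. The pattern with WT replicate 3 highest is thus that of 1 probe. Crygf, a lens crystallin gene, had levels of -4.47, -4.51 and -4.42 in Prss54KO, against -4.91, -5.07 and -4.22 in WT, so that WT replicate 2 was the lowest and WT replicate 3 the highest, as for that Pnpla2 probe. Genes chosen by r largely share the order of arrays with that probe, so this is no separate finding. The r values describe 6 arrays that share their scaling, and no test was made of them.

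The 10 spots of the Lep probe were not equally dim. Their highest signal on an array was 31.5, 45.0 and 14.7 in Prss54KO, against 45.1, 7.76 and 8.68 in WT, while the median over spots was 10.1, 8.77 and 6.83 in Prss54KO, against 7.38, 6.46 and 6.62 in WT. Outlier marks removed 2 of these spots on Prss54KO arrays and 3 on WT arrays before the spots were averaged.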
